A study of Mus musculus with 68 samples.

Results

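The question was which genes of the uterus respond to oestradiol (E2) within 2 h in wild-type mice and not, or not alike, in mice without oestrogen receptor alpha (ERα). It was addressed by 9 of the 68 arrays of the series. The littermate group, WT (Ex3aERKO), gave 2 vehicle arrays (replicates 2 and 3) and 3 arrays taken 2 h after E2 (replicates 1, 2 and 3). The knockout group, Ex3aERKO, which the labels call Esr1-null, gave 2 vehicle arrays (replicates 2 and 3) and 2 arrays taken 2 h after E2 (replicates 1 and 3). All these mice were on C57Bl6 and ovariectomized, so their own ovarian oestrogen was absent. E2 was injected into the peritoneum at 250 ng in 100 µl of saline, and vehicle was the same volume of saline. Vehicle tissue was taken 24 h after injection, so in both genotypes the response at 2 h was read against a later vehicle sample. Neither the age of the mice nor the hour of the day is stated in the labels. The series planned 3 replicates a group, and in the 3 groups with 2 arrays the submitters left out 1 outlier, so the spread may be understated there. Nothing says how separate the replicates were, so p-values measure the spread between arrays. For the Ex3aERKO set that spread was estimated over all 25 of its arrays, the 24 h and IGF1 groups included, and not over the 9 alone.

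The quantity of interest is the interaction, which is the response of the Ex3aERKO uterus (E2 at 2 h minus vehicle) minus the response of the littermate uterus. It was computed on log2 intensities, where 1 unit is a 2-fold difference, for each of 30142 genes. A negative interaction means that the Ex3aERKO response lay below the littermate response, as happens when a rise is lost. A positive one means that it lay above, as happens when a fall is lost. A gene was called when its p-value from limma, adjusted by the Benjamini-Hochberg method over all 30142 genes, was under 0.05. Errors given with an interaction or a response are standard errors (SE) from that model.

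ERα, the product of Esr1, is a nuclear receptor that binds E2, moves onto DNA at oestrogen response elements or through partner factors such as AP-1, and recruits coregulators that raise or lower transcription. In the rodent uterus a single dose of E2 sets off an early phase of transcription, water uptake and increased vascular permeability, followed about a day later by epithelial proliferation. ERα is present in the epithelium, stroma and muscle of the uterus, and other oestrogen-binding proteins, ERβ (Esr2) and the membrane receptor GPER1, are known as well.

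Replicate arrays of the 4 groups correlated across genes at 0.990 to 0.995. Of the 9 arrays, Ex3aERKO E2 array 1 stood apart in a small number of genes: 20 genes lay more than 2 log2 units above all 8 other arrays, against 0 to 8 genes for each of the others. They included Ltf, the milk and uterine secretory protein lactoferrin, at 16.48 there and at 11.91 on the other Ex3aERKO E2 array, and Krt15, a basal keratin, at 14.81 and 7.85. Neither had a called interaction (adjusted p = 0.195 and 0.550). Without that array 2472 interactions were called, and 2163 of them were among those called with it. The tissue is bulk uterus, so fewer cells of a type and less RNA per cell cannot be told apart in any value below.

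Esr1 itself was lower in Ex3aERKO. It ranged from 11.44 to 12.73 on the 14 littermate arrays of the set (all treatments) and from 9.38 to 10.29 on the 11 Ex3aERKO arrays, with no overlap. Under vehicle the genotype difference was -2.39 (adjusted p = 1.8e-06). The signal that remained in Ex3aERKO was above the background of the array, and the sources used here do not say which part of the gene the probe set reads. E2 lowered Esr1 in littermates by 1.09 ± 0.18 (adjusted p = 0.000135), while the Ex3aERKO response was -0.51 ± 0.19 and not called (adjusted p = 0.552). The interaction for Esr1 was 0.59 ± 0.26 and not called either (adjusted p = 0.207). Esr2 stayed between 4.59 and 4.75 on all 9 arrays, not above the background of 5.57 set by control probe sets that match no mouse sequence, so ERβ transcript was not detectable here in either genotype. Gper1 was not analysed here.

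Of the 30142 genes, 2841 (9.43%) had a called interaction. Of these, 1461 were negative (4.85% of all genes) and 1380 positive (4.58%), and 1568 were at least 2-fold (5.2%). The littermate response alone was called for 6214 genes (20.6%), 3105 higher and 3109 lower. The Ex3aERKO response was called for 45 genes (0.149%), 35 higher and 10 lower, with 2067 at an unadjusted p under 0.05. The littermate and Ex3aERKO responses are parts of the interaction, so the following counts describe how it was made up. In 2666 of the 2841 genes the littermate response was called and the Ex3aERKO response was not, and in all 2666 the interaction had the opposite sign to the littermate response. In 1405 of the 1461 negative genes littermates rose, and in 1264 of the 1380 positive genes they fell. A further 20 genes had a called response in Ex3aERKO only, 3 in both genotypes and 152 in neither. The count of called interactions was 1810 without littermate vehicle array 3, 1896 without Ex3aERKO vehicle array 2, 1991 without littermate vehicle array 2 and 2001 without Ex3aERKO E2 array 3, and from 2261 to 2705 without any one of the other 5. The positive interactions numbered 902, 817 and 835 without littermate vehicle array 2, littermate vehicle array 3 and Ex3aERKO vehicle array 2.

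**Figure D1:**
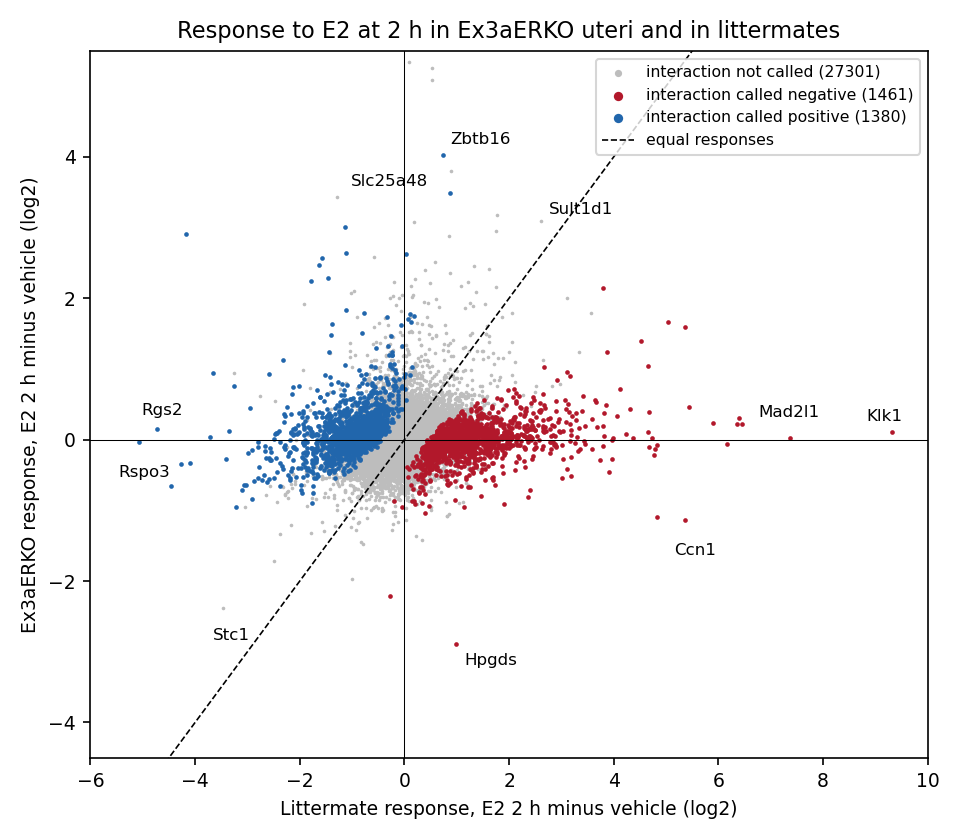
Response to E2 at 2 h in littermates (x axis, log2) against Ex3aERKO (y axis, log2) for 30142 genes, 1 point a gene. Called interactions are coloured, 1461 negative in red and 1380 positive in blue, and they lie along the horizontal axis, where the littermate response is large and the Ex3aERKO response is near 0, while Zbtb16, Slc25a48 and Hpgds lie off it.

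The 5 most negative interactions among protein-coding genes were those of Klk1, Mad2l1, Ccn1, Gadd45g and Klk1b5. Klk1 encodes tissue kallikrein, a protease that releases kinins. Its log2 intensity was 5.12 and 5.94 under vehicle and 15.12, 14.63 and 14.80 after E2 in littermates. The Ex3aERKO arrays were at 5.17 and 5.39 under vehicle and 5.56 and 5.23 after E2. The 3 littermate E2 arrays thus stood alone and the other 6 arrays overlapped, and the interaction was -9.21 ± 0.58 (adjusted p = 9.55e-09). The 4 Ex3aERKO arrays and 1 littermate vehicle array were not above background for Klk1, so their levels are only upper bounds and the size of the interaction is uncertain. Klk1b5, a neighbour in the same gene family, gave -6.23 ± 0.38, but its sequence is close to that of other kallikreins and the array may not separate them. Mad2l1, a protein of the spindle checkpoint, went from 8.26 and 8.25 to 15.60, 15.58 and 15.66 in littermates. In Ex3aERKO it was 8.15 and 8.01 under vehicle and 7.95 and 8.24 after E2, with an interaction of -7.34 ± 0.47 (adjusted p = 1.14e-08).

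Ccn1, a matricellular protein that acts through integrins, was at 7.89 and 8.11 under vehicle and 13.58, 13.43 and 13.07 after E2 in littermates. In Ex3aERKO the arrays ran the other way, from 9.05 and 8.98 under vehicle to 7.83 and 7.94 after E2. That fall of 1.13 ± 0.33 was not called (adjusted p = 0.284), but it adds to the interaction of -6.49 ± 0.45. Gadd45g, a stress-inducible growth inhibitor, was at 5.65 and 5.83 under vehicle and at 12.23, 11.93 and 12.41 after E2 in littermates. Its 4 Ex3aERKO arrays lay between 5.63 and 6.08, and the interaction was -6.23 ± 0.30 (adjusted p = 3.05e-10). Pgf, the placental growth factor of the VEGF family, was at 5.86 and 5.53 under vehicle and at 12.22, 11.78 and 12.17 after E2 in littermates, and between 6.10 and 6.46 on the Ex3aERKO arrays. Its interaction was -6.14 ± 0.24 (adjusted p = 2.49e-11).

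The other named genes with the most negative interactions were B4galt5 (a glycosyltransferase of glycolipid synthesis, -6.08 ± 0.37), Adamts4 (an aggrecan-cleaving protease, -5.67 ± 0.63), Plk2 (a polo-like kinase, -4.98 ± 0.35), Zfp469 (-4.98 ± 0.45), Dennd2a (-4.92 ± 0.23) and Greb1 (-4.91 ± 0.22). Greb1, an ERα cofactor and a classical oestrogen target, was at 6.45 and 6.44 under vehicle and at 11.29, 11.20 and 11.34 after E2 in littermates. It lay between 5.45 and 5.57 on all 4 Ex3aERKO arrays, at the background, and it started lower there, by 0.89 under vehicle (adjusted p = 0.00488). Across these 12 genes the littermate response ran from 4.77 to 9.32 and the Ex3aERKO response from -1.13 to 0.46, with none of the latter called. Klk1b5 and Adamts4 were not above background on any array but those of littermates after E2, so the sizes given for them are uncertain in the same way.

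**Figure D2:**
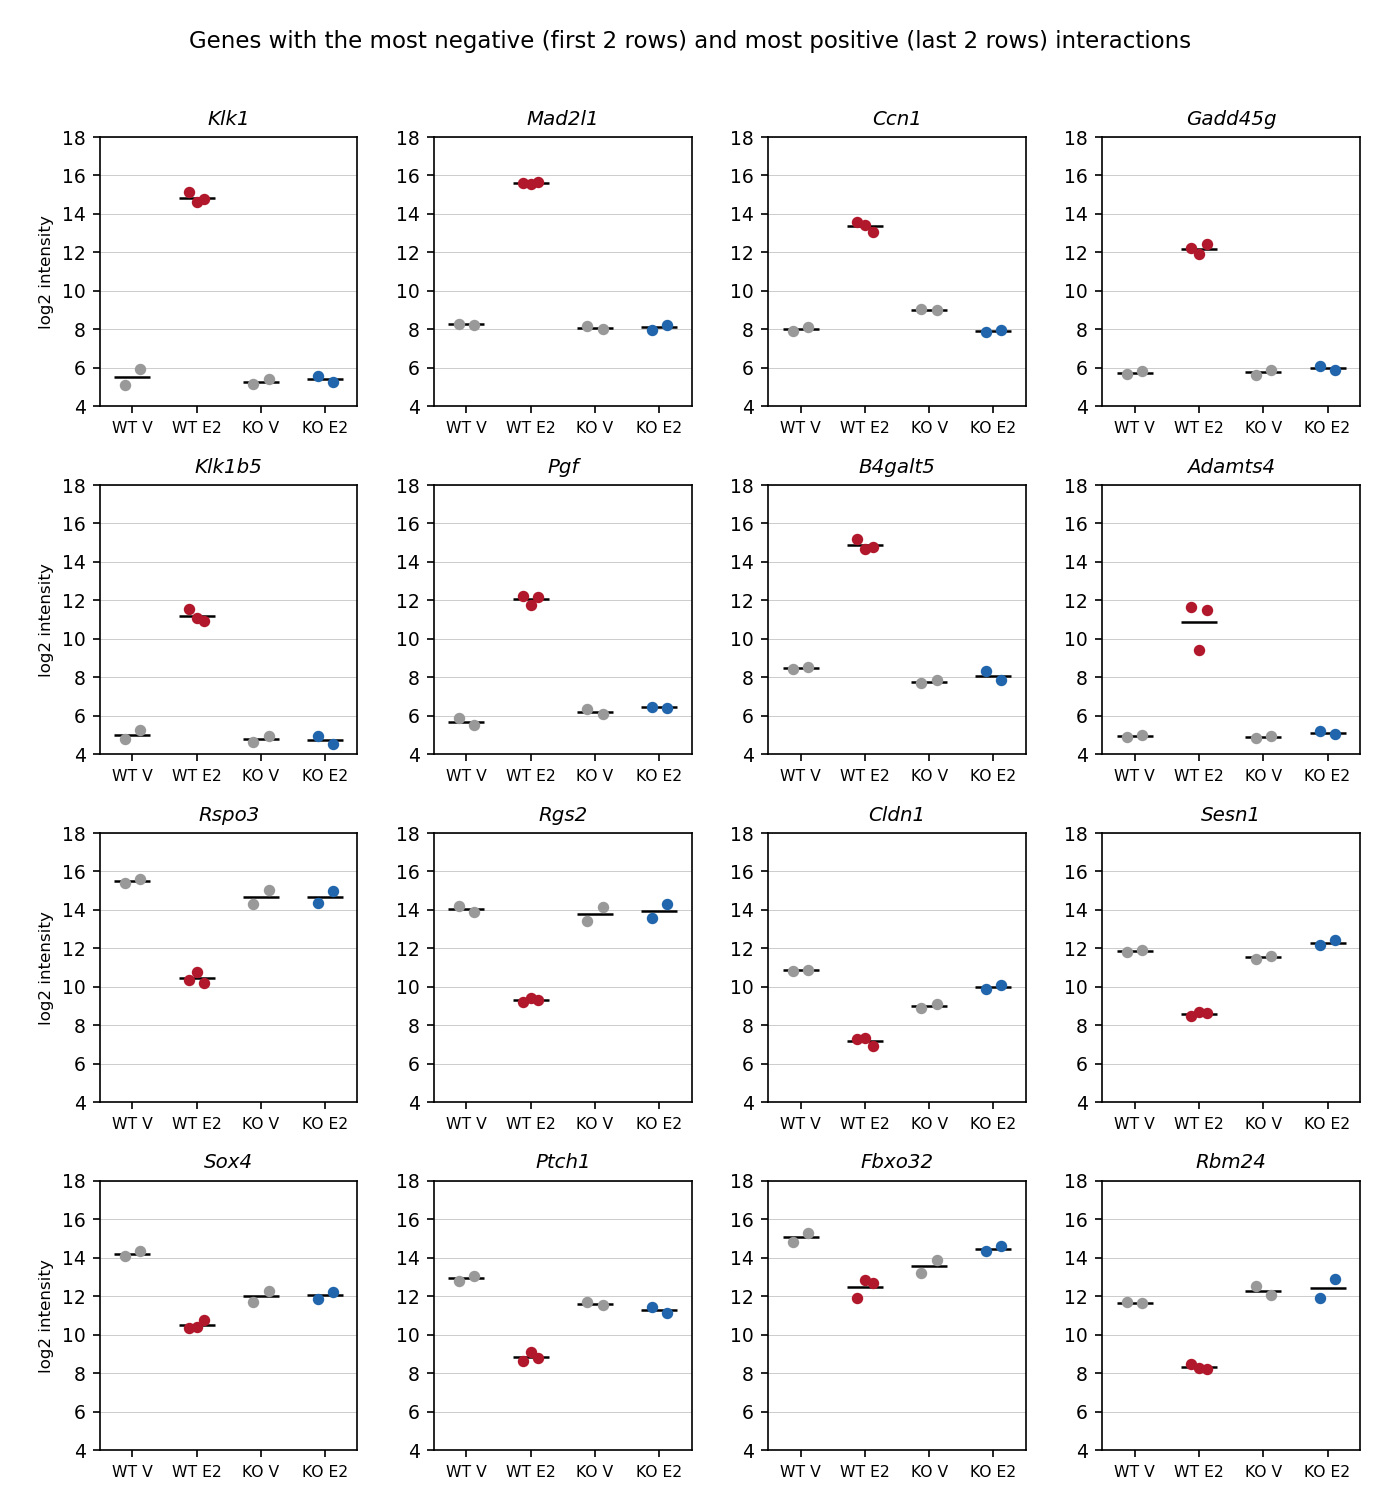
Log2 intensity on each of the 9 arrays for 8 genes with the most negative interactions (first 2 rows) and 8 with the most positive (last 2 rows). WT is the littermate and KO the Ex3aERKO group, V is vehicle and E2 is 2 h after E2, points are arrays and bars group means, and the littermate E2 arrays (red) stand apart from the other 6 in every panel, at 15.12, 14.63 and 14.80 for Klk1 and at 10.36, 10.77 and 10.19 for Rspo3.

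The promoter windows of the 4 genes with the most negative interactions show what kind of start-site sequence these genes carry. The windows are RefSeq sequences of build GRCm38.p6, 250 bases before to 50 after the gene's start, printed 5′ to 3′ in the direction of transcription. They lie at chr7:44225110-44225409 (Klk1, plus strand), chr6:66534971-66535270 (Mad2l1, plus), chr3:145649936-145650235 (Ccn1, minus) and chr13:51846425-51846724 (Gadd45g, plus). Capitals mark matches on either strand to the oestrogen response element half-site GGTCA and to the TATA box TATAAA.
Klk1: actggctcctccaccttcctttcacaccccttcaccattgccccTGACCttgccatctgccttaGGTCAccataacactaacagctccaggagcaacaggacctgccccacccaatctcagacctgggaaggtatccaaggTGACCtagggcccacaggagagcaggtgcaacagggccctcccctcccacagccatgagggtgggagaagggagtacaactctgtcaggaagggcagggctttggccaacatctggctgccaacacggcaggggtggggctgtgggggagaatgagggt
Mad2l1: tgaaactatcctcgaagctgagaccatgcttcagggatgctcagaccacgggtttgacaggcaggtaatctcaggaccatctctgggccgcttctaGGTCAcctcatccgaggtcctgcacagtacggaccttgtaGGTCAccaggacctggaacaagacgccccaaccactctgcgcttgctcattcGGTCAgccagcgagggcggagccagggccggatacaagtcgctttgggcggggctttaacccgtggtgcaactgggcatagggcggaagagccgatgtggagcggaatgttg
Ccn1: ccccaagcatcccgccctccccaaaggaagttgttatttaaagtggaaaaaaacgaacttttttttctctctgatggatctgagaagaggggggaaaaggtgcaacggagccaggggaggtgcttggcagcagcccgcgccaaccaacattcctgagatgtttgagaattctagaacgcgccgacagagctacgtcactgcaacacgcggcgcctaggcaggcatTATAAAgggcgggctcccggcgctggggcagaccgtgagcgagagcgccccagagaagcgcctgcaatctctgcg
Gadd45g: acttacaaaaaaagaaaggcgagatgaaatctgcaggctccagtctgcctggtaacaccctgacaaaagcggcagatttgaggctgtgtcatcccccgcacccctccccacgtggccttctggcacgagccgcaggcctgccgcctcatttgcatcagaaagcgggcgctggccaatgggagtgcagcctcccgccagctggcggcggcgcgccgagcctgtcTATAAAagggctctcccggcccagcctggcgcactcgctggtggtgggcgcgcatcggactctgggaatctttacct
Klk1 and Mad2l1 each held 3 half-sites, and Ccn1 and Gadd45g held none but a TATA box each. No match to the cAMP response element TGACGTCA, the AP-1 site TGANTCA or the CArG box was found in the 4 windows, and GC boxes (GGGCGG) were found in Mad2l1 (3) and Ccn1 (2). None held the full element GGTCANNNTGACC, of which each arm is itself a half-site.

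Across all 18856 windows of protein-coding genes, 39.2% held the half-site, against 44.4% of the 716 windows of genes with a called negative interaction of at least 2-fold and 31.4% of the 586 windows of the positive ones. For the GC box the shares were 47.7%, 67.5% and 49.7%, for the cAMP response element 2.27%, 4.89% and 1.54%, for the AP-1 site 7.08%, 4.89% and 6.83%, and for the CArG box 1.44%, 1.82% and 0.683%. For the TATA box they were 12.3%, 7.4% and 10.9%. The full element was in 9 coding windows (0.0477%). Of these 9, 1 belonged to a gene with a called interaction, which is close to the 12.7% called among all protein-coding genes. That gene was Pde10a, a phosphodiesterase that breaks down cyclic nucleotides, and it was singled out after its values were seen. Its element lies at chr17:8850002-8850014, plus strand, from base 17 after the start site, and reads as follows, with the half-sites in capitals.
Pde10a: GGTCAaccTGACC
Pde10a was at 6.06 and 6.08 under vehicle and at 7.65, 7.08 and 7.92 after E2 in littermates, and between 5.59 and 6.04 on the 4 Ex3aERKO arrays. The groups of littermates did not overlap, and its interaction was -1.48 ± 0.27 (adjusted p = 0.00153). A match is a description of letters, not a binding site.

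Among the genes with a positive interaction, Rspo3, a secreted agonist of WNT signalling, was at 15.40 and 15.62 under vehicle and at 10.36, 10.77 and 10.19 after E2 in littermates. The Ex3aERKO uteri were at 14.32 and 15.04 under vehicle and at 14.34 and 14.96 after E2. The 2 Ex3aERKO groups overlapped, and the interaction was 5.04 ± 0.61 (adjusted p = 2.71e-05). Rgs2, a regulator that shortens G protein signals, was at 14.19 and 13.87 under vehicle and at 9.19, 9.42 and 9.32 after E2 in littermates, while the Ex3aERKO arrays lay between 13.42 and 14.29. Its interaction was 4.87 ± 0.50 (adjusted p = 3.82e-06).

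Sesn1, a stress sensor that restrains mTORC1, was at 11.80 and 11.90 under vehicle and at 8.48, 8.67 and 8.62 after E2 in littermates. In Ex3aERKO it was at 11.43 and 11.62 under vehicle and at 12.15 and 12.41 after E2, a rise of 0.76 ± 0.29 that was not called (adjusted p = 0.541), and the interaction was 4.02 ± 0.39. Txnip, which inhibits thioredoxin and glucose uptake, was at 16.29 and 16.54 under vehicle and at 12.49, 13.99 and 13.93 after E2 in littermates, and between 16.70 and 17.32 on the Ex3aERKO arrays (interaction 3.39 ± 0.56). Sox4, a transcription factor of progenitor cells, was at 14.08 and 14.37 under vehicle and at 10.34, 10.41 and 10.76 after E2 in littermates. It started lower in Ex3aERKO by 2.22 (adjusted p = 0.000143) and stayed there at 11.71, 12.30, 11.85 and 12.24, so the 4 arrays lay between the 2 littermate groups.

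The other named genes with the most positive interactions were Cldn1 (a tight-junction protein, 4.61 ± 0.99), Ptch1 (the hedgehog receptor, 3.76 ± 0.55), Fbxo32 (a ubiquitin ligase of muscle atrophy, 3.52 ± 0.74), Rbm24 (an RNA-binding splicing factor, 3.48 ± 0.35), Galnt15 (a glycosyltransferase, 3.45 ± 0.37), Hpgd (the enzyme that inactivates prostaglandins, 3.13 ± 0.62) and Zbtb16, which is of another kind and is described with the Ex3aERKO responses. Littermates fell in 11 of these 12 genes. In Cldn1 the Ex3aERKO arrays were 8.92 and 9.13 under vehicle and 9.86 and 10.08 after E2, below the littermate vehicle arrays (10.81 and 10.89), and that rise was not called (adjusted p = 0.917).

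The gene lists that follow are from textbook knowledge, but they were written with earlier results of these data known. Each count is to be read beside the 4.85% negative and 4.58% positive among all genes, where the median interaction was -0.03. Of the 19043 protein-coding genes alone, 2426 (12.7%) had a called interaction, 1245 negative and 1181 positive. All 20 measured genes of the list of early oestrogen-responsive uterine genes had a called interaction, 19 negative and 1 positive (Sox4), with a median of -3.12. None of the 20 had a called response in Ex3aERKO. The list was put together from genes known to respond to E2 in the uterus. Its count and direction are therefore not independent of what is known of wild types, or of earlier results of these data.

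**Figure D3:**
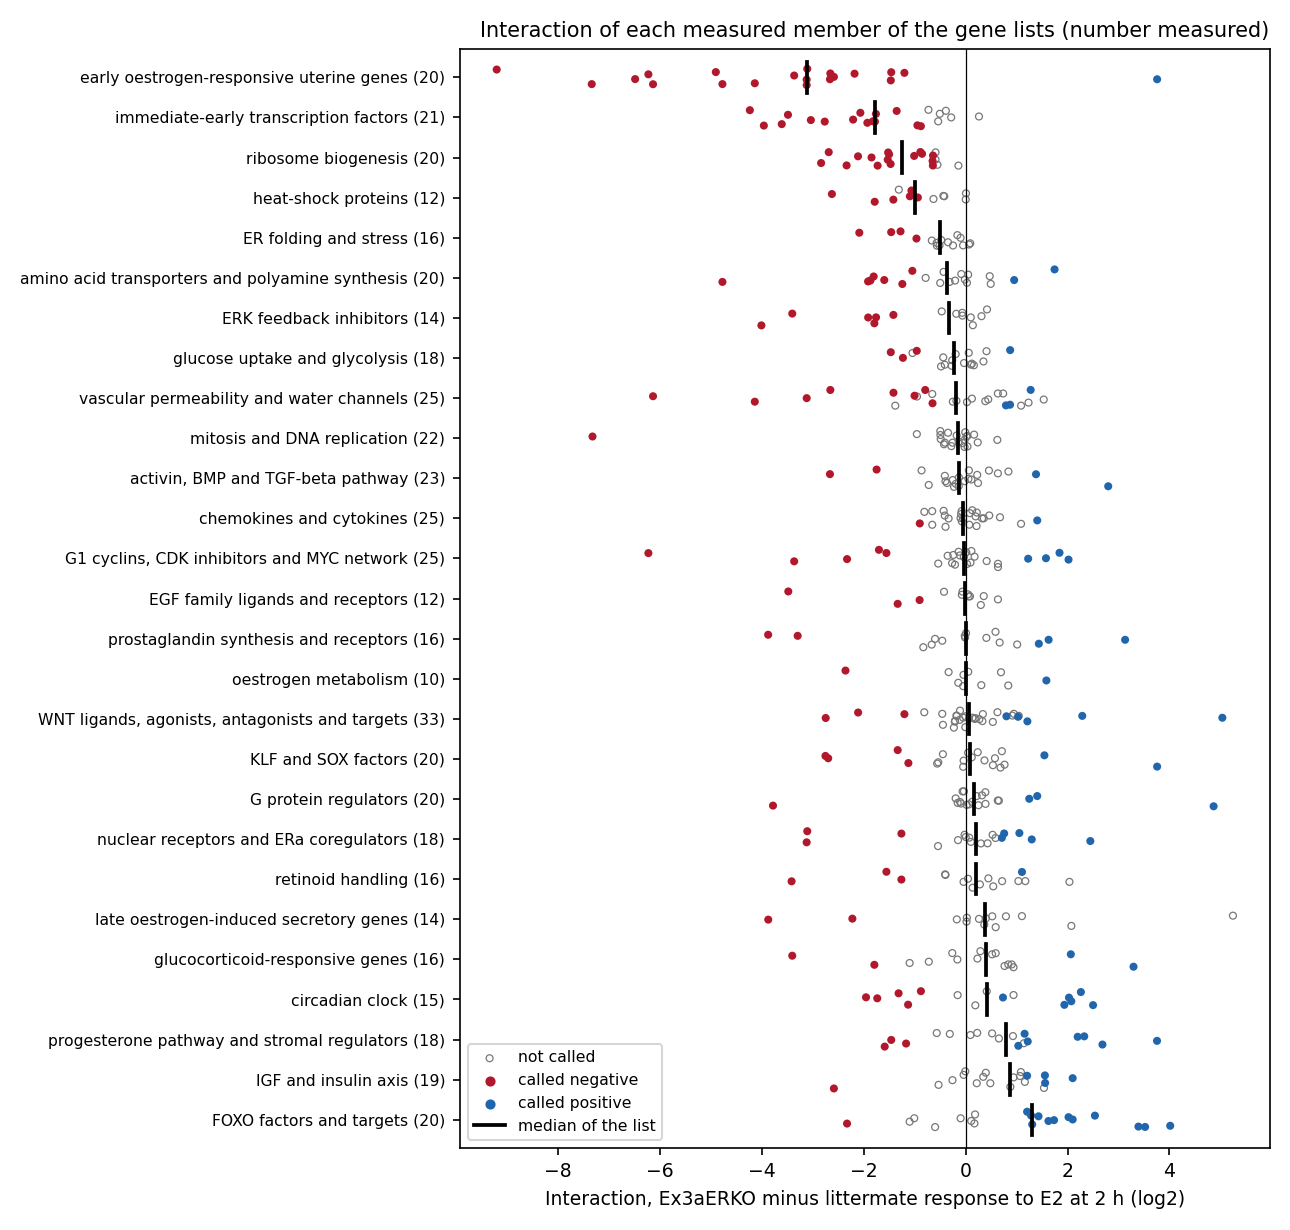
Interaction (log2, x axis) of every measured member of 27 gene lists, with the number measured in parentheses. Red and blue points were called negative and positive, open points were not called, black bars are list medians, from -3.12 for the early oestrogen-responsive genes to 1.30 for the FOXO list.

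Among the nuclear receptors and ERα coregulators, 3 of 18 measured genes were called negative and 5 positive. Pgr, the progesterone receptor, was at 14.26 and 13.83 under vehicle and at 16.37, 16.45 and 16.51 after E2 in littermates. In Ex3aERKO it was at 14.06 and 13.45 and then at 12.81 and 13.27, below its own vehicle arrays, though that fall was not called (adjusted p = 0.767). The interaction was -3.11 ± 0.49. Nrip1, a corepressor of ERα, was at 9.36 and 9.13 under vehicle and at 12.81, 12.92 and 12.97 after E2 in littermates, with an interaction of -3.12 ± 0.20. In Ex3aERKO its E2 arrays, at 9.45 and 9.37, lay above the vehicle arrays at 8.93 and 8.83, a difference of 0.53 ± 0.15 that was not called (adjusted p = 0.232). Ppargc1a, a coactivator of mitochondrial genes, fell by 2.57 ± 0.16 in littermates and gave the most positive interaction of the list (2.45 ± 0.24), followed by the thyroid hormone receptor gene Thra (1.30 ± 0.16).

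Immediate-early transcription factors, which are switched on by growth factor signalling without new protein synthesis, gave 15 of 21 called negative and 0 positive, with a median interaction of -1.78. Fos, a subunit of AP-1, was at 4.95 and 5.45 under vehicle and at 9.52, 9.09 and 8.88 after E2 in littermates. The Ex3aERKO arrays were all between 5.11 and 5.23, not above background like the littermate vehicle arrays, and the interaction was -3.96 ± 0.28 (adjusted p = 3.43e-08). Nr4a1, an orphan nuclear receptor, was at 6.21 and 5.95 under vehicle and at 10.12, 10.34 and 9.66 after E2 in littermates, and at 6.47 and 6.34 and then 6.26 and 6.0 in Ex3aERKO (interaction -4.24 ± 0.37). The list's median response in Ex3aERKO was -0.00, and none of its members had a called response there.

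The ERK feedback inhibitors, which are induced by and restrain the MAP kinase cascade, had 6 of 14 members called negative and 0 positive. Spry4 rose by 3.73 ± 0.43 in littermates against -0.28 ± 0.47 in Ex3aERKO, and Errfi1, an inhibitor of the EGF receptor, by 4.13 ± 0.30 against 0.72 ± 0.33, neither Ex3aERKO value being called. Of the EGF family, 3 of 12 were called negative, led by the ligand Hbegf. It was at 6.54 and 6.63 under vehicle and at 10.37, 10.03 and 9.32 after E2 in littermates, while the 4 Ex3aERKO arrays lay between 6.92 and 7.17 (interaction -3.48 ± 0.34). Nrg1, another ligand, gave -1.34 ± 0.33, a call that was lost without littermate vehicle array 2, Ex3aERKO vehicle array 2 or Ex3aERKO E2 array 1. Among KLF and SOX factors 4 of 20 were called negative and 2 positive, with Sox9 (-2.75 ± 0.46) and Klf4 (-2.70 ± 0.41), both epithelial regulators, opposite to Sox4. The 4 negative calls became 2 without littermate vehicle array 2, Ex3aERKO vehicle array 3 or Ex3aERKO E2 array 3. Sox17 was also positive (1.55 ± 0.44), and its call was lost without any one of littermate vehicle array 2, littermate vehicle array 3, littermate E2 array 3, Ex3aERKO vehicle array 3, Ex3aERKO E2 array 1 or Ex3aERKO E2 array 3.

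Genes of vascular permeability and water transport gave 8 of 25 negative and 3 positive. Vegfa, which opens and grows blood vessels, was at 9.2 and 9.47 under vehicle and at 13.80, 13.42 and 13.45 after E2 in littermates. All 4 Ex3aERKO arrays lay between 9.12 and 9.26, and the interaction was -4.14 ± 0.41 (adjusted p = 2.75e-06). Pgf, of the same family, is given above. Vegfc, the lymphatic growth factor, went the other way: littermates fell by 1.27 ± 0.16 and the interaction was 0.87 ± 0.24. Aplnr, the apelin receptor of vessels, also fell in littermates (interaction 1.28 ± 0.30). The 3 positive calls became 1 without Ex3aERKO vehicle array 2 or Ex3aERKO E2 array 3 and 5 without Ex3aERKO vehicle array 3. Vegfc lost its call without any one of littermate vehicle array 2, littermate E2 array 3, Ex3aERKO vehicle array 2 or Ex3aERKO E2 array 3, and Aplnr without littermate vehicle array 3.

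The insulin-like growth factor axis mattered to the series, whose title concerns IGF1. Igf1, which the uterus makes in its stroma, was at 10.53 and 10.69 under vehicle and at 13.03, 12.53 and 13.14 after E2 in littermates. Its Ex3aERKO levels were 9.17 and 9.79 under vehicle and 9.11 and 9.25 after E2. It started lower by 1.13 (adjusted p = 0.0395), the 2 Ex3aERKO groups overlapped, and the interaction was -2.59 ± 0.39 (adjusted p = 0.00027). Igf1 was the one negative call of 19 measured genes, with 4 positive calls: Irs2 (2.10 ± 0.59), Igf2r (1.56 ± 0.31), Pik3r1 (1.56) and Pik3ip1 (1.21). Without Ex3aERKO vehicle array 3 the positive calls were 7. The receptor gene Igf1r fell by 0.57 ± 0.19 in littermates (adjusted p = 0.0381) and its interaction, 0.48 ± 0.28, was not called (adjusted p = 0.375). Irs2, which couples these receptors to PI3 kinase, was at 10.24 and 11.04 under vehicle and at 8.54, 8.88 and 8.74 after E2 in littermates, and it lost its call without any one of littermate vehicle array 3, littermate E2 array 1, littermate E2 array 3, Ex3aERKO vehicle array 2 or Ex3aERKO E2 array 3.

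FOXO factors are switched off by insulin and IGF1 signalling through AKT, and the list of FOXO factors and their known targets gave 12 of 20 called positive and 1 negative, with a median interaction of 1.30. Sesn1, Fbxo32, Txnip and Irs2, described above, are members. Littermates fell in 13 of the 20 genes and rose in 4, by the same test, and no member was called in Ex3aERKO, where the median response was 0.17. Gadd45a, a DNA-damage-inducible gene, was the negative member. It was at 7.12 and 7.13 under vehicle and at 9.74, 9.01 and 9.76 after E2 in littermates, against 6.53, 6.89, 6.91 and 6.60 on the Ex3aERKO arrays (interaction -2.33 ± 0.33).

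WNT ligands, agonists, antagonists and targets gave 3 of 33 negative and 5 positive. Lgr6, a receptor for R-spondins, and Axin2, a feedback target of β-catenin, rose in littermates by 2.80 ± 0.12 and 1.90 ± 0.14, with interactions of -2.75 ± 0.18 and -2.11 ± 0.21. Lgr6 was not above background on the Ex3aERKO arrays. Wnt4, a ligand of stromal differentiation, was at 7.26 and 7.32 under vehicle and at 9.10, 8.33 and 8.35 after E2 in littermates, and its interaction was -1.2 ± 0.28 (adjusted p = 0.00854). In a fit of the 9 arrays alone Wnt4 lost its call, and so did Irs2, Vegfc, Socs1, Gem, Aldh1a3 and Cyp1b1. On the positive side stood the agonist gene Rspo3 and the antagonist gene Dkk2 (2.29 ± 0.68), which lost its call without any one of littermate vehicle array 2, littermate vehicle array 3, littermate E2 array 1, littermate E2 array 3, Ex3aERKO vehicle array 2 or Ex3aERKO E2 array 1. The 5 positive calls became 3 without littermate vehicle array 2, littermate vehicle array 3 or littermate E2 array 3. In the activin, BMP and TGF-β list 2 of 23 were negative, Inhbb (an activin subunit, -2.66 ± 0.33) and Tgfb2 (-1.75 ± 0.37), and 2 positive, Id2 (a dominant-negative helix-loop-helix factor, 2.80 ± 0.39) and Bambi (a decoy receptor, 1.38 ± 0.42, adjusted p = 0.0458). Bambi kept its call only without Ex3aERKO E2 array 1 among the 9 arrays left out in turn.

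Of the mitosis and DNA replication genes, 1 of 22 was called, and that was Mad2l1, whereas the median interaction of the list was -0.16. In the list of G1 cyclins, CDK inhibitors and the MYC network 5 of 25 were negative and 4 positive. Cdkn1a, the CDK inhibitor p21, was at 7.83 and 8.45 under vehicle and at 13.22, 13.09 and 13.21 after E2 in littermates. In Ex3aERKO it was at 7.11 and 7.55 under vehicle and at 9.03 and 8.97 after E2, so the groups did not overlap there either. That rise of 1.67 ± 0.61 was not called (adjusted p = 0.504) and was below the littermate rise, with an interaction of -3.37 ± 0.82 (adjusted p = 0.012). The call for Cdkn1a was lost without littermate vehicle array 2 or Ex3aERKO vehicle array 3. Cdkn1b, the CDK inhibitor p27, and Mxi1, a MYC antagonist, fell in littermates by 1.63 ± 0.23 and 1.65 ± 0.18 and had positive interactions (2.02 ± 0.34 and 1.84 ± 0.27).

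Genes of ribosome biogenesis moved together: 16 of 20 were called negative and 0 positive, with a median interaction of -1.24. Littermates rose in 19 of the 20, and no member was called in Ex3aERKO, where the median response was -0.03. Ddx21, a nucleolar helicase, was at 9.22 and 9.21 under vehicle and at 12.35, 12.19 and 12.37 after E2 in littermates, and between 9.06 and 9.56 in Ex3aERKO (interaction -2.84 ± 0.38). Nop58, a core protein of box C/D small nucleolar RNA particles, gave -2.69 ± 0.35. Small nucleolar RNAs, which guide the modification of ribosomal RNA, are measured on this array as genes of their own. Of the 955 tested, 33 (3.46%) had a called interaction, 31 negative and 2 positive, so the share called was below that of all genes while the direction was mostly negative. Snord14e, singled out after its values were seen, was at 10.67 and 10.89 under vehicle and at 15.55, 15.32 and 15.96 after E2 in littermates. In Ex3aERKO it was at 12.11 and 12.01 and then at 10.86 and 11.07, and its interaction was -5.93 ± 0.85 (adjusted p = 0.000145). In ERaUtcKO the interaction of Snord14e was -1.49 and not called (adjusted p = 0.19). Such RNAs lie in introns of other genes, so signal from host transcripts may be included.

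Of the heat-shock proteins 6 of 12 were called negative and 0 positive, with a median interaction of -1.0. Hsph1, a chaperone of the HSP110 family, was at 8.51 and 8.31 under vehicle and at 12.55, 12.18 and 12.09 after E2 in littermates. In Ex3aERKO it went from 8.68 and 8.55 to 10.07 and 9.64, again without overlap, a rise of 1.24 ± 0.32 that was not called (adjusted p = 0.187), against an interaction of -2.63 ± 0.43. In the list of endoplasmic reticulum folding and stress 4 of 16 were negative and 0 positive. Littermates rose in 10 of these 16, and the median Ex3aERKO response was 0.42 with no member called. Atf4, the translation-stress factor, had an interaction of -2.09 ± 0.44 and Hspa5, the chaperone BiP, of -1.46 ± 0.38. The 4 calls became 1 or 2 without littermate vehicle array 2, littermate vehicle array 3, littermate E2 array 1, Ex3aERKO vehicle array 3 or Ex3aERKO E2 array 3. Hspa5 itself was lost without littermate vehicle array 2, Ex3aERKO vehicle array 3 or Ex3aERKO E2 array 3.

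Metabolic lists were mixed. Among amino acid transporters and polyamine enzymes 7 of 20 were negative and 2 positive. The 2 positive calls became 1 without any one of the 9 arrays, with each other scaling and with a replicate block, as Slc7a2 lost its call each time. Slc7a5, the large neutral amino acid transporter, was at 9.17 and 9.21 under vehicle and at 13.81, 13.58 and 14.17 after E2 in littermates, and between 9.43 and 9.68 in Ex3aERKO (interaction -4.78 ± 0.55). The arginine transporter gene Slc7a1 gave -1.92 ± 0.38. Slc43a1, also an amino acid transporter, moved in opposite directions: it fell by 0.83 ± 0.16 in littermates (adjusted p = 0.000775) and rose by 0.92 ± 0.18 in Ex3aERKO (adjusted p = 0.0459), with an interaction of 1.75 ± 0.24. In the list of glucose uptake and glycolysis 3 of 18 were negative, among them the hexokinases Hk1 (-1.23 ± 0.18) and Hk2 (-1.47 ± 0.43), and Pdk1, which restrains entry of pyruvate into mitochondria, was positive (0.87 ± 0.22). The 3 negative calls became 1 without littermate vehicle array 3, Ex3aERKO vehicle array 2 or Ex3aERKO E2 array 1. Hk2 kept its call without littermate E2 array 3 and lost it without any other of the 9 arrays, and Pdk1 lost it without littermate vehicle array 2, Ex3aERKO vehicle array 2 or Ex3aERKO E2 array 1.

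Regulators of the stroma and of the progesterone pathway gave 7 of 18 positive and 3 negative. Nr2f2 (COUP-TFII), a stromal nuclear receptor, was at 12.03 and 12.08 under vehicle and at 8.89, 9.55 and 9.36 after E2 in littermates. The 4 Ex3aERKO arrays lay between 11.84 and 12.03, and the interaction was 2.69 ± 0.25 (adjusted p = 1.25e-06). Hoxa10 (2.20), Hoxa11 (2.33), Hand2 (1.16), Ptch1, Il13ra2 and Gata2 were the other positive members, and Fkbp4 (a co-chaperone of the progesterone receptor, -1.59 ± 0.29), Cebpb (-1.46 ± 0.28) and Lif (-1.17) the negative ones. Nr2f2, Hoxa10, Hoxa11 and Hand2 also serve as stromal markers below.

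Prostaglandin enzymes and receptors gave 2 of 16 negative and 3 positive. Ptges, the synthase of prostaglandin E2, was at 6.62 and 6.79 under vehicle and at 10.46, 10.20 and 10.24 after E2 in littermates, against 6.99, 7.02, 7.80 and 6.79 in Ex3aERKO (interaction -3.30 ± 0.54). Hpgd and the receptor genes Ptgfr (1.63 ± 0.27) and Ptger4 (1.44) were positive. Of the G protein regulators 1 of 20 was negative and 3 positive. Rasd1, a small GTPase, rose by 5.37 ± 0.56 in littermates and was at 5.11 and 5.43, not above background, and then at 6.82 and 6.90 in Ex3aERKO, a rise of 1.59 ± 0.61 that was not called (adjusted p = 0.559; interaction -3.78 ± 0.83). Beside Rgs2, the GTPase Gem was positive (1.41 ± 0.39), and the 3 positive calls became 1 without Ex3aERKO vehicle array 2. Gem lost its call without either littermate vehicle array, littermate E2 array 2, Ex3aERKO vehicle array 2 or Ex3aERKO E2 array 3. Of retinoid genes 3 of 16 were negative, led by Aldh1a2, which makes retinoic acid (-3.42 ± 0.39), and Lrat, which esterifies retinol (-1.56 ± 0.21, above background only in littermates after E2), and 1 positive, Aldh1a3 (1.11 ± 0.30), whose call was lost without littermate vehicle array 2, Ex3aERKO vehicle array 3 or Ex3aERKO E2 array 3. Of oestrogen metabolism genes 1 of 10 was negative, Hsd17b11 (a steroid dehydrogenase, -2.36 ± 0.27), and 1 positive. The latter was Cyp1b1, a hydroxylase of oestrogens, which under vehicle was already higher in Ex3aERKO by 2.50 (adjusted p = 8.68e-05) and had an interaction of 1.58 ± 0.39. It was not above background on the littermate E2 arrays. Its call was lost without littermate vehicle array 3, Ex3aERKO vehicle array 3 or Ex3aERKO E2 array 3.

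Among circadian clock genes 5 of 15 were negative and 6 positive. Nr1d1 (REV-ERBα), a repressor of the clock, was at 12.88 and 12.49 under vehicle and at 9.83, 10.35 and 10.40 after E2 in littermates, and between 12.85 and 13.05 in Ex3aERKO (interaction 2.50 ± 0.42). Per3 fell by 3.21 ± 0.22 in littermates, and in Ex3aERKO it was at 10.62 and 10.34 and then at 9.36 and 9.71, lower without overlap but not called (adjusted p = 0.168; interaction 2.26 ± 0.32). Bhlhe40 (-1.96 ± 0.40) and Per2 (-1.74 ± 0.29) were the most negative. Npas2, an activator of the clock, rose in both genotypes, by 1.75 ± 0.17 in littermates and 2.16 ± 0.18 in Ex3aERKO (adjusted p = 3.68e-07 and 1.62e-05), and its interaction of 0.41 ± 0.25 was not called (adjusted p = 0.399). The vehicle arrays were taken at another time after injection than the E2 arrays, and the part of that in these values was not tested.

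Chemokines and cytokines hardly entered the interaction, with 1 of 25 negative (Socs1, a cytokine feedback inhibitor, -0.90 ± 0.19) and 1 positive (Il15, a factor for natural killer cells, 1.41 ± 0.22). The share called was 8%, beside 9.43% of all genes and 12.7% of protein-coding genes. Of the secretory genes known as late targets of E2, 2 of 14 were called, both negative: the protein arginine deiminases Padi1 (-3.88 ± 0.56) and Padi2 (-2.22 ± 0.29), the latter not above background on the Ex3aERKO arrays. The mean level of that list was 7.92 and 9.32 on the 2 Ex3aERKO E2 arrays, a wider gap than in the other groups (7.54 and 7.97 on the littermate vehicle arrays). Ltf, given above with Ex3aERKO E2 array 1, is a known late target of E2, and the part of that array in the list's level was not tested.

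Under vehicle, before any E2, 891 genes (2.96%) differed between the genotypes. Of the 14 measured markers of uterine epithelium 8 were called higher in Ex3aERKO and 0 lower, with a median difference of 1.07. Their mean level was 8.68 and 8.98 on the littermate vehicle arrays and 9.65 and 9.84 on the Ex3aERKO vehicle arrays. Of 12 stromal markers 3 were called lower and 0 higher, with a median of -0.61. In the interaction, stromal markers gave 6 of 12 positive and 1 negative (Col6a3, a collagen VI chain, -2.29), with a median of 1.08. Their mean level fell in littermates from 11.76 and 11.89 under vehicle to between 10.47 and 10.58 after E2, while in Ex3aERKO it was 10.71 and 11.23 under vehicle and 10.72 and 10.91 after E2. Epithelial markers gave 2 negative (Krt7 and Elf3) and 1 positive (Ehf) of 14. The part of these marker shifts in the other values was not tested.

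Endothelial markers gave 1 negative (Eng, a TGF-β coreceptor, -1.92) and 2 positive (Emcn and Cldn5) of 12. Of the smooth muscle, macrophage, neutrophil, T and NK cell, mesothelium, adipocyte, liver and erythroid lists 0 members were called in either direction, at 0.05 after adjustment by limma, and of the B cell list 1 (Blnk, -0.86). The defining markers of the uterus, such as Epcam, Krt8, Hoxa10 and the smooth muscle actin gene Acta2, were above background. Of the 9 measured liver markers 2 were above background, and of the 7 B cell markers 3.

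In Ex3aERKO 45 genes were called after E2, and the number rested on few arrays: it was 5 without Ex3aERKO vehicle array 2, 8 without Ex3aERKO vehicle array 3, 29 without either littermate vehicle array, 32 without Ex3aERKO E2 array 1 and 53 without Ex3aERKO E2 array 3. Of the 45, 22 had no called interaction, and in 19 of these littermates were called in the same direction. Sult1d1, a sulfotransferase, was at 11.14 and 10.69 under vehicle and at 13.39, 13.99 and 13.18 after E2 in littermates. Its Ex3aERKO levels were 12.57 and 12.16 and then 15.18 and 15.74, a rise of 3.10 ± 0.42 (adjusted p = 0.00417) beside the littermate rise of 2.60 ± 0.38. The interaction of 0.49 ± 0.57 was not called (adjusted p = 0.731). In the separate C57Bl6 wild types of the series, described below, Sult1d1 was called lower after 2 h of E2 (-0.75, limma, adjusted p = 0.0158).

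Lrp2, the endocytic receptor megalin, rose by 3.17 ± 0.46 in Ex3aERKO and by 1.78 ± 0.42 in littermates, and Hdc, the enzyme that makes histamine, by 2.46 ± 0.44 and 1.33 ± 0.40, all 4 called and neither interaction called (adjusted p = 0.202 and 0.309). In the C57Bl6 wild types neither Lrp2 (-0.15) nor Hdc (-0.83) was called (limma, adjusted p = 0.622 and 0.0545). Among the falls, Stc1, the secreted glycoprotein stanniocalcin, dropped by 2.38 ± 0.45 in Ex3aERKO and by 3.47 ± 0.41 in littermates. Its starting level was higher in Ex3aERKO by 2.97 (adjusted p = 0.000998), so its Ex3aERKO arrays after E2, at 11.48 and 11.70, still lay above the higher littermate vehicle array at 11.02. Wls, which carries WNT ligands to the cell surface, dropped by 0.93 ± 0.16 and 1.29 ± 0.15, and Ccdc62, a coiled-coil protein, by 1.00 ± 0.16 and 0.97 ± 0.14, with no called interaction. Both started higher in Ex3aERKO under vehicle, by 1.82 and 0.60 (adjusted p = 5.33e-06 and 0.0429). The C57Bl6 wild types were called lower after 2 h of E2 for Stc1 (-3.20), Wls (-1.215) and Ccdc62 (-0.37). In ERaUtcKO, the second knockout described below, none of these falls was called: Stc1 -0.74, Wls -0.18 and Ccdc62 -0.35 (limma, adjusted p = 0.637, 0.816 and 0.143). There the interactions of Stc1 (1.74) and Wls (0.81) were called (adjusted p = 0.0394 and 0.00659), and that of Ccdc62 (0.32) was not (adjusted p = 0.147). Cirbp, a cold-inducible RNA-binding protein, dropped in both, by 0.90 ± 0.17 in Ex3aERKO and by 1.76 ± 0.16 in littermates, with an interaction of 0.86 ± 0.23 (adjusted p = 0.022). Cirbp lost that call without either littermate vehicle array, littermate E2 array 1, Ex3aERKO vehicle array 2 or Ex3aERKO E2 array 1.

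A second group changed in Ex3aERKO and was not called in littermates. Zbtb16 (PLZF), a zinc-finger repressor known to respond to glucocorticoids and progestins, was at 8.22 and 7.77 under vehicle and at 11.53 and 12.52 after E2 in Ex3aERKO. In littermates it was at 7.12 and 7.49 and then at 7.77, 8.54 and 7.81. The Ex3aERKO rise was 4.03 ± 0.59 (adjusted p = 0.00683), the littermate rise of 0.73 ± 0.54 was not called (adjusted p = 0.437), and the interaction was 3.30 ± 0.80 (adjusted p = 0.0119). The call for the interaction was lost without littermate vehicle array 3, Ex3aERKO vehicle array 3 or Ex3aERKO E2 array 3.

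Slc25a48, a mitochondrial carrier, was at 9.56 and 8.91 under vehicle and at 12.73 and 12.71 after E2 in Ex3aERKO, a rise of 3.49 ± 0.57. Acod1, which makes itaconate in activated macrophages, was at 5.37 and 5.26 and then at 8.56 and 7.32, and on all 5 littermate arrays between 4.51 and 5.15. Acod1 was above background on the 2 Ex3aERKO E2 arrays alone. Tnfrsf21 (death receptor 6) was at 6.35 and 6.46 and then at 7.99 and 8.31, and on the littermate arrays between 6.08 and 6.74. The 3 interactions were 2.61 ± 0.78, 2.60 ± 0.69 and 1.56 ± 0.43 (adjusted p = 0.0395, 0.0213 and 0.027). Slc25a48 kept its call without littermate E2 array 1 or 2 and lost it without any other of the 9 arrays. Acod1 lost it without littermate vehicle array 3, either Ex3aERKO vehicle array or Ex3aERKO E2 array 1. Tnfrsf21 lost it without littermate vehicle array 2 or 3, littermate E2 array 3, either Ex3aERKO vehicle array or Ex3aERKO E2 array 3.

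Hpgds, the haematopoietic prostaglandin D synthase, fell in Ex3aERKO, from 13.46 and 11.93 under vehicle to 10.08 and 9.53 after E2, a change of -2.89 ± 0.40 (adjusted p = 0.00417). In littermates it was at 9.12 and 9.58 and then at 10.10, 10.57 and 10.35, which was not called (adjusted p = 0.0662). Its vehicle level was higher in Ex3aERKO by 3.34 (adjusted p = 0.000125), and after E2 both Ex3aERKO arrays lay below the lowest littermate E2 array. The interaction was -3.88 ± 0.54. In the C57Bl6 wild types Zbtb16 (-0.55), Slc25a48 (-1.55) and Tnfrsf21 (-0.78) were called lower after 2 h of E2 (limma, adjusted p = 0.00663, 5.48e-06 and 0.000203). Acod1 (-0.56) and Hpgds (0.54) were not called there (adjusted p = 0.0916 and 0.083). In ERaUtcKO the interactions of Hpgds (-0.78), Slc25a48 (1.30) and Acod1 (0.27) were not called (adjusted p = 0.25, 0.172 and 0.645), and those of Zbtb16 (2.67) and Tnfrsf21 (0.73) were (adjusted p = 2.51e-05 and 0.0472). Fgf9, a growth factor, fell by 1.2 ± 0.23 in Ex3aERKO (adjusted p = 0.0459) from a vehicle level that was higher by 1.46 (adjusted p = 0.00159), and its interaction of -0.98 ± 0.32 was not called (adjusted p = 0.0607).

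**Figure D4:**
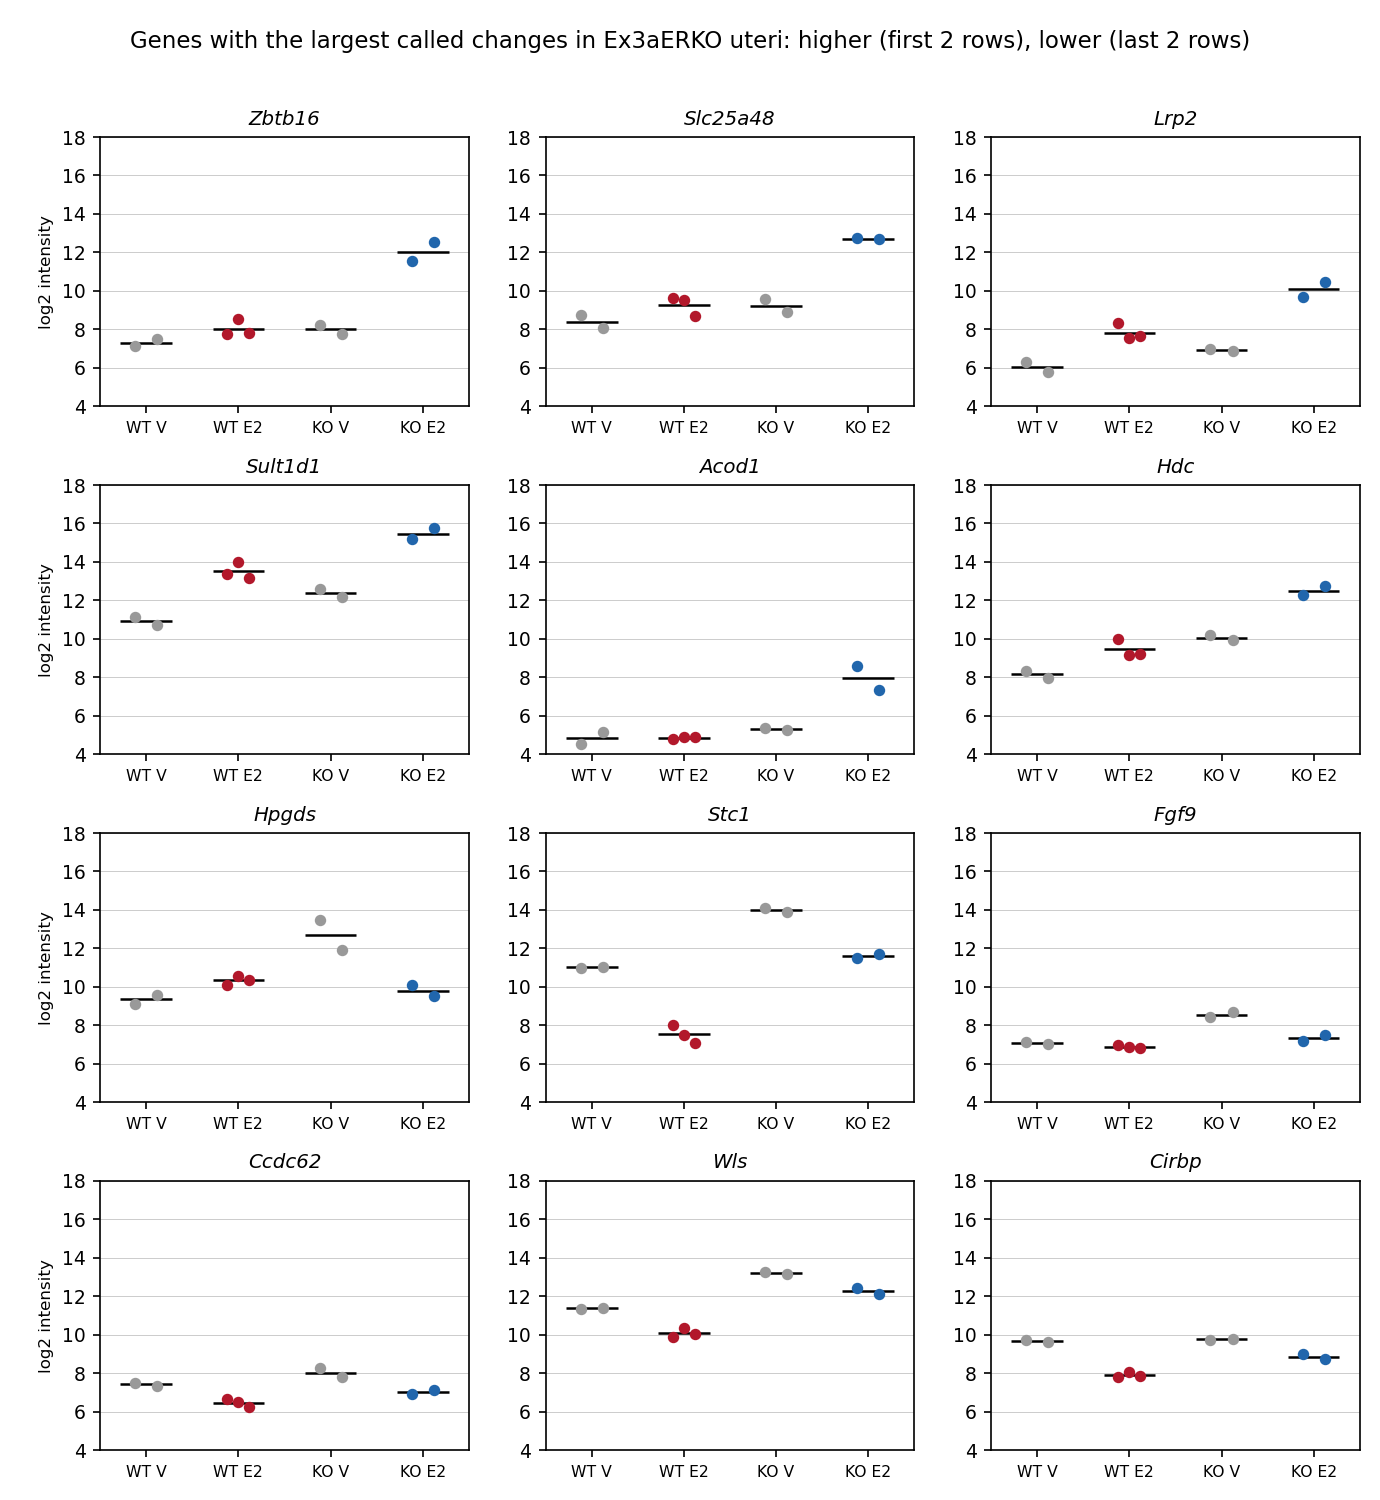
Log2 intensity on each of the 9 arrays for the 6 largest rises (first 2 rows) and 6 largest falls (last 2 rows) among genes called in Ex3aERKO, with groups, points and bars as in the plot of lost responses. Zbtb16, Slc25a48 and Acod1 are high on the 2 Ex3aERKO E2 arrays alone, Sult1d1 rises in both genotypes, and Hpgds, Stc1, Fgf9, Ccdc62 and Wls start higher in Ex3aERKO under vehicle.

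Of 16 glucocorticoid-responsive genes, 4 were called higher in Ex3aERKO after E2 and 0 lower, beside 0.149% of all genes, and the list's median response was 1.26 in Ex3aERKO and 0.80 in littermates. Littermates were called higher in 7. As for the clock genes, vehicle and E2 arrays were taken at different times after injection, and E2 cannot be told apart from that time in these responses. The 4 were Zbtb16, Tsc22d3 (the leucine-zipper protein GILZ), Fkbp5 (a co-chaperone of steroid receptors) and Sult1a1. Tsc22d3 was at 8.14 and 7.80 under vehicle and at 9.41 or above on both arrays after E2 in Ex3aERKO, and between 6.80 and 7.61 on the littermate arrays (interaction 2.06 ± 0.42, adjusted p = 0.00301). Fkbp5 rose in both genotypes, by 1.35 ± 0.24 in Ex3aERKO and 0.83 ± 0.22 in littermates, with no called interaction (adjusted p = 0.427). In the interaction 2 of the 16 were positive (Zbtb16 and Tsc22d3) and 2 negative (Errfi1 and Dusp1, -1.79 ± 0.31).

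The loss was also read on genes chosen in animals that the interaction did not use. In the C57Bl6 wild types of the series (3 vehicle and 3 E2 arrays), 1685 genes (5.59%) were called at 2-fold or more after 2 h of E2, 949 higher and 736 lower. Of the 949, 695 (73.2%) had a called negative interaction and 0 a called positive one. Their median response was 1.37 in littermates and 0.07 in Ex3aERKO, where 3 were called higher. In Ex3aERKO 5% of them lay below -0.32 and 5% above 0.62. Of the 736, 469 (63.7%) had a called positive interaction and 0 a negative one, with median responses of -1.25 and -0.03, and in Ex3aERKO 3 were called lower and 2 higher. Under vehicle the median genotype difference was -0.02 for the 949, with 19 called higher and 25 lower in Ex3aERKO. It was -0.11 for the 736, with 23 higher and 52 lower. Among all 30142 genes 470 were called higher and 421 lower under vehicle. For the 1380 genes with a positive interaction these counts were 22 and 150, and for the 1461 negative ones 49 and 24. The vehicle levels are part of the interaction, so these last counts describe how it was made up.

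The same interaction could be read in a second knockout, ERaUtcKO, with 3 arrays in each of its 4 groups. In these mice, labelled Esr1f/f;PgrCre+, Cre under the progesterone receptor gene removes Esr1 in cells that have expressed that gene, so cells without Cre may keep ERα. There 4154 genes (13.8%) had a called interaction. Of the 1461 negative genes of Ex3aERKO, 1109 (75.9%) were called negative in ERaUtcKO and 0 positive, and 1422 (97.3%) had the same sign. Of the 1380 positive genes, 871 (63.1%) were called positive and 0 negative, and 1354 (98.1%) had the same sign. The median interaction of the negative genes was -1.09 in Ex3aERKO and -0.82 in ERaUtcKO, and of the positive genes 1.03 and 0.65. The genes were chosen on the Ex3aERKO values, which favours larger values there. All 24 protein-coding genes named above for the largest interactions were called in ERaUtcKO as well, while the small nucleolar RNA Snord14e was not.

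**Figure D5:**
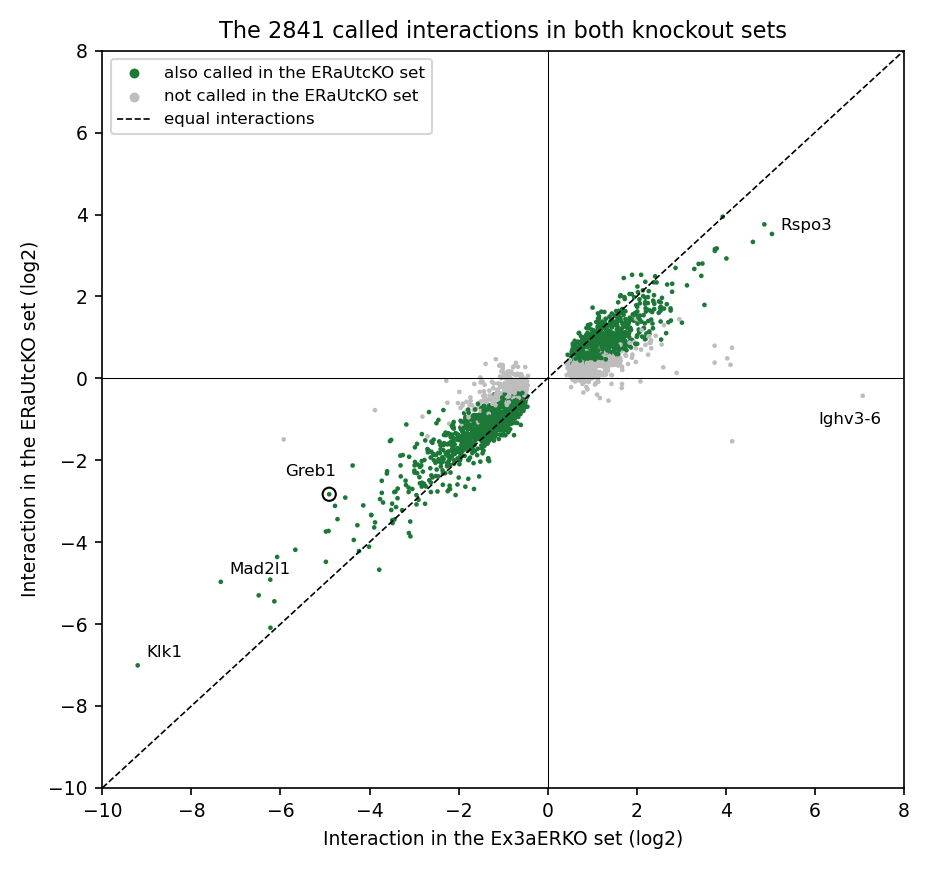
Interaction in the Ex3aERKO set (x axis, log2) against that in the ERaUtcKO set (y axis, log2) for the 2841 genes called in the former. Green genes were called in the ERaUtcKO set too, and Greb1 (circled) is at -4.91 and -2.83.

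The difference between the 2 interactions was tested for every gene in a model of 54 arrays, and 1 gene was called (0.00332%), with 2132 at an unadjusted p under 0.05. That gene was Greb1, with a difference of -2.08 ± 0.28 (adjusted p = 0.000211). In ERaUtcKO it was at 6.28, 6.31 and 6.2 under vehicle and at 8.30, 7.64 and 7.84 after E2, and in the littermates of that set at 6.74, 6.92 and 7.01 and then at 11.32, 11.55 and 11.28. So the response was 1.66 in ERaUtcKO, where all 3 E2 arrays lay above all vehicle arrays, and -0.08 in Ex3aERKO. The Ex3aERKO arrays were at the background for Greb1 and the ERaUtcKO vehicle arrays above it, so a change below that level in Ex3aERKO could not be read, and the part of this in the difference was not tested. The difference was called with any 1 of the 21 arrays left out, and between 1 and 20 genes were then called. Next in order, and not called, was Lgr6 (-1.23 ± 0.23, adjusted p = 0.054).

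Other treatments of the same set give genotype differences on arrays that the interaction did not use. These comparisons were added after the other results were known. At 24 h after E2, 12530 of the 30142 genes (41.6%) differed between Ex3aERKO and littermates, 6930 higher in Ex3aERKO and 5600 lower. The counts that follow are to be read beside these. Of the 1461 genes with a negative interaction at 2 h, 609 were called lower in Ex3aERKO at 24 h and 192 higher. Of the 1380 positive genes, 458 were called higher and 222 lower. Klk1 was still at 12.49, 12.42 and 11.39 in littermates at 24 h and at 5.82 and 7.20 in Ex3aERKO, whereas Fos was at 5.30, 5.38 and 5.35 in littermates, close to their vehicle level, and at 5.57 and 5.99 in Ex3aERKO. Greb1 had come down to 6.92, 6.97 and 7.01 in littermates, against 5.63 and 6.42.

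IGF1, a growth factor, was given to the same 2 genotypes by injection or pump (the labels do not say which mice had which). At 2 h after IGF1, 1009 of the 30142 genes (3.35%) differed between the genotypes, 501 higher in Ex3aERKO and 508 lower. Of the 1461 negative genes 72 were called lower in Ex3aERKO and 19 higher, and of the 1380 positive genes 48 were called higher and 84 lower. Fos was at 6.72, 6.37 and 6.18 in littermates and at 6.0 on both Ex3aERKO arrays after IGF1. Klk1 was at 5.94, 6.79 and 5.59 in littermates and at 5.76 and 5.33 in Ex3aERKO, far below the littermate E2 arrays on all 5. Greb1 after IGF1 was at 6.50, 6.29 and 6.64 in littermates and at 5.43 and 5.49 in Ex3aERKO, close to the vehicle levels of each genotype.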

How the data were processed

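RNA of uterine tissue was measured on Affymetrix arrays. The authors deposited 1 log2 intensity per array for each of 72688 probe sets, already summarised and normalized. The method and the genome build are not given in the sources used here. The highest value is 19.9315, and 16 genes reached to within 0.01 of it in the Ex3aERKO set. Array medians ran from 5.82 to 6.15 in the Ex3aERKO set and from 6.26 to 6.62 on the arrays of the other sets. Probe sets were named through GEO's platform annotation: 30604 had 1 gene symbol, and 2146 with several were left out. Of a gene's probe sets (355 genes had more than 1) the brightest was kept, giving 30142 genes, 19043 of them protein coding. "Above background" means over 5.57, the 95th percentile of 23 antigenomic control probe sets, taken as the median over the arrays of the Ex3aERKO set. On the C57Bl6 arrays that percentile ran from 6.12 to 6.89.

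A linear model with 1 mean per group was fitted with limma 3.58.1 in R 4.3.3 to the 25 arrays of the Ex3aERKO set (15 residual degrees of freedom), and likewise to the 29 arrays of the ERaUtcKO set, the 14 C57Bl6 arrays and the 54 arrays of both knockout sets. P-values are two-sided, moderated by eBayes and adjusted over all genes. The number of arrays limits the precision. The 12 protein-coding genes with the most negative and the 12 with the most positive called interaction (predicted genes passed over), the 2 most negative and 2 most positive called genes of each list, the 6 largest called rises and falls in Ex3aERKO and the genes of the study's question were named by rule. The genes and lists were chosen with earlier results of these data known. Alternatives changed the scaling, probe sets, filter, variance model, replicate block and arrays. The scripts were tested on simulated data for the interaction in the Ex3aERKO set. Of 100 planted interactions of 1 log2 unit 43% were called in the planted direction, and of 100 of 2 log2 units 88%. With no change planted 0 genes were called. A gene that was not called may therefore still have a 2-fold interaction.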

Additional observations from a re-analysis of the deposited data

Results flagged for a closer look

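The response to E2 at 2 h differed between Ex3aERKO and littermates, by the test of the difference itself, in 2841 genes. Klk1, with an interaction of -9.21 ± 0.58, and Rspo3, with 5.04 ± 0.61, were at the ends of the range of the protein-coding genes named by rule. The V segment Ighv3-6, at 7.08 ± 1.90, lay above Rspo3.

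Greb1 was the one gene called in the test of the difference between the 2 knockouts, at -2.08 ± 0.28 (limma, adjusted p = 0.000211). Genes that were not called are not thereby shown to be alike in both. The Greb1 interaction was -4.91 in Ex3aERKO and -2.83 in ERaUtcKO, and all 3 ERaUtcKO arrays after E2 lay above the 3 under vehicle. Greb1 was at the background on the Ex3aERKO arrays.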

How the results depend on the processing

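Leaving out 1 array at a time gave 1810 to 2705 called interactions (993 to 1404 negative, 817 to 1301 positive), 4109 to 6224 called littermate responses and 5 to 53 called Ex3aERKO responses, and 1 to 20 genes for the difference between the knockouts. These last fits, without 1 array, were chosen after seeing the data. The other alternatives gave 2589 to 3114 called interactions. With the 9 arrays alone 76.8% of the called interactions were called again, and the Ex3aERKO responses numbered 27. With the replicate number as a block they numbered 21, the interactions 2729 and the difference between the knockouts 2 genes (Dennd2a and Greb1), and with the filter on dim genes that difference also gave 2 (Greb1 and Lgr6). The replicate numbers did not pair the arrays: 8 of 25 arrays correlated best with an array of their own number, and deviations of same-numbered arrays correlated between -0.29 and 0.41. Of 95 named genes with a call, 73 kept it under all 16 settings and all 95 kept the sign of their interaction. Of the called interactions 48.6% were positive, against 43.8% (1533 negative, 1195 positive) with median centring, and of the called littermate responses 50% were higher, against 55.9% with median centring and 48.2% with quantile normalization. Without Ex3aERKO E2 array 3 the difference between the knockouts had 20 genes, and without littermate E2 array 2 it had 12. Genes near the background and near the ceiling of the scale have compressed differences. The cause of these changes was not tested.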

Other observations

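Some genes outside the lists were singled out after their values were seen. The microRNA gene Mir99a was at 14.32 and 14.69 under vehicle and at 10.37, 10.36 and 9.97 after E2 in littermates. In Ex3aERKO it was at 14.44 and 13.79 and then at 13.26 and 14.30, and its interaction was 3.93 ± 0.79 (limma, adjusted p = 0.00303). Mirlet7c-1 gave 2.42 ± 0.68 (adjusted p = 0.0284). Among small nucleolar RNAs, Snord43 gave -3.54, Snord72 -3.17 and Snord35a -2.81. Of long noncoding RNAs 171 of 3169 had a called interaction (5.4%), 56 negative and 115 positive, whereas of protein-coding genes 2426 of 19043 had one, 1245 negative and 1181 positive.

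Of 298 antibody and T cell receptor V segments 7 had a called interaction, all positive, a share below the 9.43% of all genes. Ighv3-6 was at 12.82 and 14.56 under vehicle and at 11.99, 7.81 and 8.78 after E2 in littermates, and at 7.71 and 8.72 and then at 9.14 and 13.11 in Ex3aERKO. Its interaction was 7.08 ± 1.90 (adjusted p = 0.0224), and the arrays of a group differed by several log2 units. None of the 7 was called in ERaUtcKO.

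Other genes that stood out on Ex3aERKO E2 array 1 were Krt5 at 12.85, Cyp2f2 at 15.20 and Olfm4 at 11.07. Serpinb11 at 10.98 and Gabrp at 14.59 were also highest there, but by less than 2 log2 units. Littermate vehicle array 2 was at 9.90 and 12.88 for them.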
